A study of Homo sapiens with 12 samples.

Results

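The human genes described here are 9 Wnt ligands and secreted modulators of Wnt signalling, chosen by name from 60617 genes in the deposited table. They are the ligands WNT4, WNT5A and WNT11, the agonist RSPO3, the ligand-binding antagonists SFRP1, SFRP4 and WIF1, and the Dickkopf proteins DKK1 and DKK3. They were picked for what they encode, by a rule with no threshold on measured values, but with earlier results of these data known. After the filter on low counts, 8 of the 9 could be tested, and RSPO3 fell below it.

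The cells were NCI-H295R, an established line from a human adrenocortical carcinoma that makes steroids and carries an activating mutation of CTNNB1, the gene of β-catenin. Baseline cells received DMSO, the solvent of the other agents, for 96 h. Another group received 62 µM EPZ-6438 (tazemetostat, an inhibitor of the histone methyltransferase EZH2) for 96 h, and a further group 26 µM PRI-724, which blocks the binding of β-catenin to its coactivator CBP, for 96 h. The labels call both doses the IC50. The last group was kept in vehicle for 48 h before a 48 h exposure to 10 µM forskolin, an activator of adenylyl cyclase that raises cAMP. Each group had 3 biological replicates per the labels, all of 1 cell line, so p-values measure the spread between cultures of that line. The labels do not number the replicates, and the numbers used below follow the order of the samples in each group. The forskolin libraries differ from the others in both agent and time of exposure, which cannot be told apart here.

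Wnt ligands are lipid-modified secreted proteins that bind Frizzled receptors, with LRP5 or LRP6 in the β-catenin pathway and with ROR or RYK receptors in branches that do not use it. SFRP proteins and WIF1 bind ligands outside the cell, DKK1 blocks LRP5 and LRP6, and R-spondins such as RSPO3 keep Frizzled receptors on the surface by removing ZNRF3 and RNF43 through LGR receptors. In the adrenal cortex, WNT4 is a product of the outer zona glomerulosa, RSPO3 comes from the capsule around it, and cAMP signalling through the ACTH receptor governs the inner, cortisol-making zone.

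Library totals were 20.6 to 31.5 megacounts of estimated counts. Levels are given as CPM (counts per megacount of the TMM-scaled library). The correlation of log2 CPM across genes was 0.992 to 0.996 between replicates and 0.953 to 0.982 between libraries of different groups. Of 9 adrenocortical markers (the steroid factor NR5A1, steroidogenic genes and others), 8 or 9 had counts in each group. Their summed level was 1985 to 2048 CPM at baseline, 605 to 632 with EPZ-6438, 580.0 to 651 with PRI-724 and 3886 to 4087 with forskolin. The marker nearest to 0 was MLANA, at a mean of 0 CPM with PRI-724. Marker lists of endothelial, blood and chromaffin cells summed to at most 3.71, 2.33 and 6.63 CPM in any library.

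The promoters of the members whose levels differed most between forskolin and baseline are shown first, because 3 of these genes were lower and 1 was higher in the same cells. Each window runs from 250 bases before to 50 bases after a RefSeq start site (GRCh38.p14) and is written 5′ to 3′ on the gene's strand. Capitals mark exact matches, on either strand, to CTTTGA (the core of TCF/LEF sites), TGACGTCA or its part TGACG (the full and partial cAMP response element) or AAGGTCA (the core of NR5A1 sites). The windows are DKK1 at chr10:52314031-52314330 (plus strand), SFRP4 at chr7:37916768-37917067 (minus), WIF1 at chr12:65121256-65121555 (minus) and WNT4 at chr1:22143048-22143347 (minus). Those of SFRP4, WIF1 and WNT4 lie wholly within the span annotated for the gene.
DKK1: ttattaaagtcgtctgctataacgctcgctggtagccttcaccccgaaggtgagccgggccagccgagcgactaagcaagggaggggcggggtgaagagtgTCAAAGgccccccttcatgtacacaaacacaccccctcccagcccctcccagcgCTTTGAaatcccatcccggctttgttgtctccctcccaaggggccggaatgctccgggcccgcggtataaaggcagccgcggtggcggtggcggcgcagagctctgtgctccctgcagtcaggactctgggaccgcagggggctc
SFRP4: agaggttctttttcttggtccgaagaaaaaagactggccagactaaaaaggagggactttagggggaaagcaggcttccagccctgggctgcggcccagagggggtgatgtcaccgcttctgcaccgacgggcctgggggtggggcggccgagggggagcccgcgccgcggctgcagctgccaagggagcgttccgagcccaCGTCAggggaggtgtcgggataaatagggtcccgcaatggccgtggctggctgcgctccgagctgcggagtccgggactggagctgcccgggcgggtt
WIF1: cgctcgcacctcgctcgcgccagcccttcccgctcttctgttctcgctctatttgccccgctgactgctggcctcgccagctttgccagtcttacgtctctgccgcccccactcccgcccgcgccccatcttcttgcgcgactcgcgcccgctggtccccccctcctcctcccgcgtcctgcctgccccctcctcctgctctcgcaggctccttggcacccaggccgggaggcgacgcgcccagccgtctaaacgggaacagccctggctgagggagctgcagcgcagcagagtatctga
WNT4: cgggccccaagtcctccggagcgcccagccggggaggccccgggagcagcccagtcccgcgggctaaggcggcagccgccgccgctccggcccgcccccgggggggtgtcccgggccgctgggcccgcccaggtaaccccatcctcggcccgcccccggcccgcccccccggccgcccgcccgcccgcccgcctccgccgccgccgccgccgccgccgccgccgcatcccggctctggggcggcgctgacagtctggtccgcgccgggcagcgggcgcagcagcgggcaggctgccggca

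The DKK1 window held CTTTGA once on the opposite strand, beginning at position -149 from the start site, and once on its own strand at -95. The SFRP4 window held TGACG once, on the opposite strand at -48. None of the 4 motifs matched in the WIF1 or WNT4 window, nor in the RSPO3 window or the 2 WNT5A windows. Among all 34943 RefSeq windows, 12.9% held CTTTGA, 1.84% TGACGTCA, 24.5% TGACG and 3.92% AAGGTCA. The WNT4 window was 85.7% G and C with 47 CpG sites, against medians of 58.7% and 14 over all windows. The WIF1 window had 69.7% and 29, the SFRP4 window 66.3% and 23, and the DKK1 window 63.7% and 20. The search covered RefSeq windows of 6 members (WNT4, WNT5A, RSPO3, SFRP4, WIF1 and DKK1), with 7 windows in all. SFRP1 was left out of the search by choice, and WNT11 and DKK3 were not searched either.

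Forskolin moved most of the genes. It lowered WNT4, WNT11, SFRP4, WIF1 and DKK3 and raised DKK1 and SFRP1, all beyond 1.5-fold, with WNT5A 1.19-fold lower. EPZ-6438 and PRI-724 each raised WNT5A 1.92-fold and 1.79-fold and lowered WNT11 1.88-fold and 1.75-fold. PRI-724 also lowered SFRP4 3.09-fold, and SFRP1 fell 1.43-fold with EPZ-6438 and rose 1.47-fold with PRI-724.

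By edgeR's quasi-likelihood test (adjusted p under 0.05 over 20360 genes), 1 of the 8 genes tested was higher with EPZ-6438 than at baseline (29.5% of all genes were) and 3 were lower (28.3%), where 57.8% of all genes passed. With PRI-724, 4 were higher (29.8% of all genes) and 3 lower (29%), against 58.9% in either direction. With forskolin, 2 were higher (25.5%) and 6 lower (25.1%), against 50.6%. The stricter test asked for a change beyond 1.5-fold. It left 1 gene higher (6.62% of all genes) and 1 lower (4.79%) with EPZ-6438, against 11.4% in either direction. PRI-724 had 1 higher (6.09%) and 2 lower (6.14%), against 12.2%, and forskolin 2 higher (5.34%) and 5 lower (6.45%), against 11.8%. The PRI-724 count of 3 beyond 1.5-fold became 2 without baseline replicate 2 or PRI-724 replicate 2, and with DESeq2 or limma voom. The 3 comparisons share their baseline libraries. With forskolin, 5197 of the genes called were higher and 5102 lower, a split of 50.5% higher that became 39.7% (4119 against 6257) when libraries were scaled by size only; the members' directions were the same under both scalings. The median log2 fold change of the 8 genes was 0.07, 0.04 and -1.04 with EPZ-6438, PRI-724 and forskolin, beside 0.02, 0.01 and 0.01 over all genes tested.

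**Figure D1:**
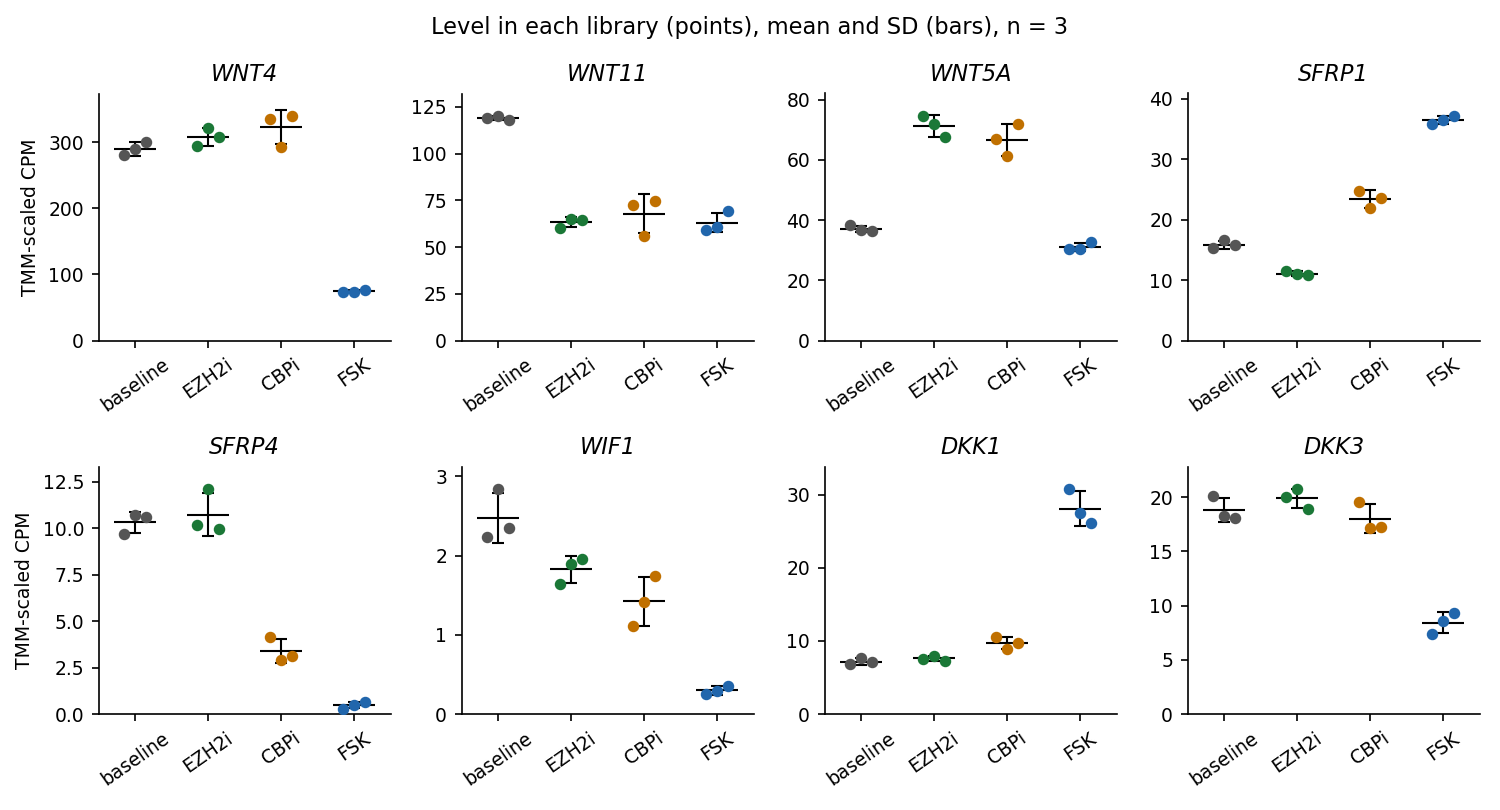
Level of each tested member (CPM, TMM-scaled, linear axis from 0) in the 12 libraries, with the mean and SD of 3 libraries in each group: baseline, EPZ-6438 (EZH2i), PRI-724 (CBPi) and forskolin (FSK). WNT4, SFRP4, WIF1 and DKK3 are lowest and DKK1 and SFRP1 highest with forskolin, while WNT5A is highest with EPZ-6438 and PRI-724.

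**Figure D2:**
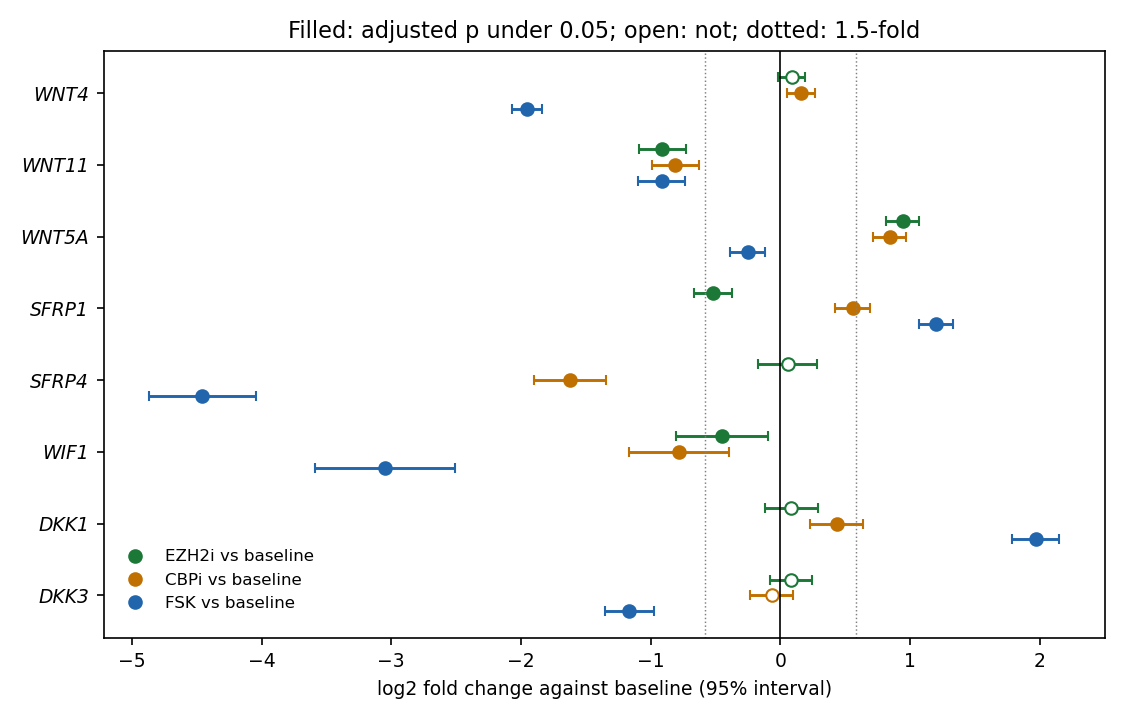
Log2 fold change of each tested member against baseline for EPZ-6438 (EZH2i), PRI-724 (CBPi) and forskolin (FSK), with 95% intervals from the fit; filled points passed the test and dotted lines mark 1.5-fold. SFRP4 at -4.46 and WIF1 at -3.05 with forskolin lie farthest from 0.

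Among the ligands, WNT4 (ENSG00000162552, chr1:22117305-22143969, minus strand, GRCh38) signals in the adrenal cortex and the gonads. Its levels were 279.9, 289.5 and 300.0 CPM in the baseline libraries and 73.3, 73.8 and 77.1 CPM with forskolin. All 3 forskolin libraries lay far below all others, and the change was -1.96 ± 0.05 on the log2 scale (SE, n = 3 against 3, edgeR adjusted p = 1.07e-16), or 3.88-fold. EPZ-6438 gave 294, 321 and 308 CPM, and PRI-724 gave 336, 293 and 339.7 CPM. Both groups overlapped baseline. The EPZ-6438 difference did not pass (log2 0.09, 95% interval -0.02 to 0.19, adjusted p = 0.158). The PRI-724 difference passed at 1.11-fold (adjusted p = 0.0131) but not without baseline replicate 1 (0.0656), PRI-724 replicate 1 (0.0645) or PRI-724 replicate 3 (0.0863). In these bulk samples, fewer cells that express a gene and less RNA of it per cell cannot be told apart. AL445253.1, on the opposite strand, shares 55 exon bases (1.21%) with WNT4 and had a mean of 63.5 counts per library.

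WNT11 (ENSG00000085741, chr11:76186325-76210736, minus strand), a ligand known mainly for planar polarity signalling, was lower in every treated group. The baseline libraries were nearly equal at 119, 120.1 and 118 CPM. They stood above 60.1, 65.1 and 64.4 CPM with EPZ-6438, above 72.7, 55.8 and 74.9 CPM with PRI-724, and above 59.2, 60.9 and 69.1 CPM with forskolin. No treated library reached the baseline range, and PRI-724 replicate 2 was the lowest of the 12. The log2 changes were -0.91 ± 0.09, -0.81 ± 0.09 and -0.92 ± 0.09 (SE, edgeR adjusted p = 2.12e-07, 8.37e-07 and 2.59e-07). An antisense gene, AP000785.1, shares 204 exon bases (8.50%) with WNT11 and had a mean of 9.25 counts per library. Whether the authors counted by strand is not given, so reads of the shared bases cannot be told apart.

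WNT5A (ENSG00000114251, chr3:55465715-55490539, minus strand), the best known ligand of the ROR receptors, rose with both inhibitors. Baseline held 38.3, 36.7 and 36.5 CPM. EPZ-6438 libraries held 74.5, 71.9 and 67.4 CPM and PRI-724 libraries 66.8, 61.1 and 71.8 CPM. Every inhibitor library was above every baseline library, with log2 changes of 0.94 ± 0.06 and 0.84 ± 0.06 (edgeR adjusted p = 5.39e-11 and 3.09e-10). Forskolin gave 30.5, 30.3 and 32.7 CPM, all below baseline, a change of -0.25 ± 0.06 (adjusted p = 0.00246).

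RSPO3 (ENSG00000146374, chr6:127118604-127197765, plus strand) was at the edge of detection. Its raw counts were 2, 0 and 0 at baseline, 1, 3 and 1 with EPZ-6438, 0, 0 and 1 with PRI-724 and 0 in all 3 forskolin libraries. A count of 0 over the forskolin group allows a level of up to 0.0424 CPM (3 counts over the group), which covers counting error only. No difference of RSPO3 was detectable at this depth.

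SFRP4 (ENSG00000106483, chr7:37905932-38025695, minus strand) binds Wnt ligands and belongs to the secreted Frizzled-related family. The baseline libraries had 9.67, 10.7 and 10.6 CPM. The forskolin libraries had 0.288, 0.497 and 0.628 CPM, which rest on raw counts of 7, 12 and 14. The groups were far apart, and SFRP4 fell 21.9-fold (log2 -4.46 ± 0.20, edgeR adjusted p = 1.27e-13), the largest change of the 8 genes in any comparison with baseline. PRI-724 libraries lay between, at 4.12, 2.90 and 3.13 CPM, all below baseline and above forskolin (log2 change from baseline -1.63 ± 0.13, adjusted p = 2.1e-09). EPZ-6438 libraries, at 10.2, 12.1 and 9.93 CPM, overlapped baseline (log2 0.05, 95% interval -0.17 to 0.28, adjusted p = 0.691). SFRP4 spans part of EPDR1 on the opposite strand (mean 4607 counts per library) but shares 0 exon bases with it.

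WIF1 (ENSG00000156076, chr12:65050626-65121566, minus strand), Wnt inhibitory factor, fell in every treated group. Baseline had 2.23, 2.83 and 2.35 CPM, and forskolin 0.247, 0.290 and 0.359 CPM from raw counts of 6, 7 and 8. The forskolin libraries were all lower, by 8.28-fold (log2 -3.05 ± 0.26, edgeR adjusted p = 3.97e-09). PRI-724 gave 1.11, 1.41 and 1.74 CPM, again below baseline (log2 -0.78 ± 0.18, adjusted p = 0.00114). EPZ-6438 gave 1.64, 1.89 and 1.95 CPM, below baseline by log2 -0.45 ± 0.17 (adjusted p = 0.0289). That call was lost with DESeq2 (adjusted p = 0.165), without baseline replicate 2 (0.165) and without EPZ-6438 replicate 1 (0.108).

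Fibroblast markers were read beside SFRP4 and WIF1. All 8 had counts in every group, and their summed level was 39.2 to 41.5 CPM at baseline, 42.3 to 49.0 with EPZ-6438, 15.04 to 18.9 with PRI-724 and 17.5 to 19.1 with forskolin. Of the collagens in the list, the higher were COL1A1 (16.4 CPM at baseline, 16.6 with EPZ-6438, 10.1 with PRI-724 and 6.52 with forskolin) and COL3A1 (15.7, 10.9, 5.09 and 3.48 CPM in the same order), with COL1A2 at most 1.46 CPM in any group mean. THY1, a surface protein of fibroblasts and other cells, was at 5.46, 16.6, 1.74 and 1.59 CPM, so that with EPZ-6438 it rose 3.02-fold (edgeR adjusted p = 1.1e-09) while COL3A1, COL1A2 and DCN fell. The defining fibroblast receptors were near 0, with PDGFRB at group means of 0.0213 to 0.0647 CPM and PDGFRA at 0.0598 to 0.387 CPM. The matrix proteoglycan genes LUM and DCN rose with forskolin, from 0.0397 to 4.61 CPM and from 0.715 to 1.66 CPM (edgeR adjusted p = 5.43e-11 and 0.000471). The summed level was below baseline with PRI-724 and forskolin, where SFRP4 and WIF1 were lower. It was not below baseline with EPZ-6438, where WIF1 was also called lower and SFRP4 was not. The EPZ-6438 sum includes the rise of THY1 from 5.46 to 16.6 CPM, while COL3A1, COL1A2 and DCN were lower there. The part of these markers in the result was not tested.

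SFRP1 (ENSG00000104332, chr8:41261958-41309497, minus strand), of the same family as SFRP4, moved in different directions. Baseline held 15.2, 16.6 and 15.9 CPM and forskolin 35.8, 36.5 and 37.2 CPM. The forskolin libraries were the 3 highest of the 12, at 2.29-fold over baseline (log2 1.20 ± 0.06, edgeR adjusted p = 2.15e-12). PRI-724 libraries, at 24.8, 21.9 and 23.6 CPM, were also above baseline (0.56 ± 0.07, adjusted p = 4.01e-07). EPZ-6438 libraries, at 11.5, 10.96 and 10.8 CPM, were all below it (-0.52 ± 0.07, adjusted p = 2.18e-06).

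DKK1 (ENSG00000107984, chr10:52314296-52318042, plus strand), the LRP5 and LRP6 blocker, rose with forskolin and, by less, with PRI-724. Its levels went from 6.79, 7.65 and 7.06 CPM at baseline to 30.7, 27.5 and 26.1 CPM with forskolin. The groups were well apart, at 3.91-fold (log2 1.97 ± 0.09, edgeR adjusted p = 1.29e-13). With PRI-724 it had 10.6, 8.87 and 9.78 CPM, all above baseline but by less (0.43 ± 0.10, adjusted p = 0.000741). With EPZ-6438 it had 7.60, 7.98 and 7.28 CPM, which overlapped baseline (0.08, 95% interval -0.12 to 0.29, adjusted p = 0.488). The antisense gene PRKG1-AS1 shares 212 exon bases (9.61%) with DKK1 and had a mean of 4.04 counts per library.

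DKK3 (ENSG00000050165, chr11:11963106-12009769, minus strand) is a divergent Dickkopf protein that is not a ligand of LRP5 or LRP6. Baseline libraries had 20.1, 18.3 and 18.1 CPM and forskolin libraries 7.36, 8.61 and 9.28 CPM. All 3 forskolin values were lower, by 2.24-fold (log2 -1.16 ± 0.09, edgeR adjusted p = 8.3e-10), so DKK1 and DKK3 changed in opposite directions. EPZ-6438 (20.01, 20.7 and 18.9 CPM) and PRI-724 (19.6, 17.2 and 17.3 CPM) overlapped baseline, with 95% intervals of the log2 change of -0.08 to 0.24 and -0.23 to 0.10 (adjusted p = 0.397 and 0.491).

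Levels of different genes were compared per length, as CPM divided by the deposited gene length in kb. At baseline the order was WNT4 (62.3 ± 2.16 CPM per kb, SD, n = 3), WNT11 (50.2 ± 0.469), WNT5A (5.02 ± 0.132), DKK3 (3.72 ± 0.219), SFRP1 (3.36 ± 0.141), DKK1 (3.23 ± 0.198), SFRP4 (2.94 ± 0.162), WIF1 (1.17 ± 0.151) and RSPO3. The ranges of SFRP1 and DKK1 overlapped, and the other neighbours tested by range did not. WNT4, WNT11 and WNT5A also led with EPZ-6438 and PRI-724. With forskolin WNT11 (26.6 ± 2.22 CPM per kb) stood above WNT4 (16.1 ± 0.436), followed by DKK1 (12.7 ± 1.07) and SFRP1 (7.71 ± 0.141). RSPO3 was last in every group.

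The make-up of the secreted pool followed these orders. Over all 19 WNT ligand genes the summed level was 124 ± 1.53 CPM per kb at baseline, 110.5 ± 3.9 with EPZ-6438, 113 ± 10.6 with PRI-724 and 54.8 ± 3.28 with forskolin (SD, n = 3). WNT4 made up 50.4% ± 1.19 of it at baseline, 59.9% ± 0.501 with EPZ-6438, 61.3% ± 0.861 with PRI-724 and 29.4% ± 0.946 with forskolin. The share of WNT11 was 40.6% ± 0.667, 24.1% ± 0.346, 25.1% ± 1.63 and 48.5% ± 1.12 in the same order. WNT4 was thus the largest ligand by this measure in 3 groups, and WNT11 with forskolin. The order with forskolin depends on the deposited lengths, 4650 bases for WNT4 and 2371 for WNT11. Before division by length, WNT4 had the higher mean there, 74.7 CPM against 63.1. WNT5A made up 4.06% at baseline and 8.73%, 7.95% and 7.69% with EPZ-6438, PRI-724 and forskolin, although its own level fell with forskolin.

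Over 15 secreted antagonists, DKK3 included, the sum was 37.2 ± 0.662 CPM per kb at baseline, 53.4 ± 1.5 with EPZ-6438, 34.3 ± 2.9 with PRI-724 and 27.3 ± 0.796 with forskolin. NOTUM, an enzyme that removes the lipid of Wnt ligands, was the largest at baseline (39.7% ± 2.17), with EPZ-6438 (59.6% ± 0.345) and with PRI-724 (40.8% ± 2.85) and made up 10.3% ± 0.868 with forskolin. DKK1 and SFRP1 took 8.68% ± 0.509 and 9.02% ± 0.334 at baseline and 46.4% ± 2.88 and 28.3% ± 1.22 with forskolin. SFRP4 went from 7.91% ± 0.336 at baseline to 2.81% ± 0.45 with PRI-724 and 0.495% ± 0.188 with forskolin. These shares are a description, and messenger RNA levels do not give the amounts of protein.

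**Figure D3:**
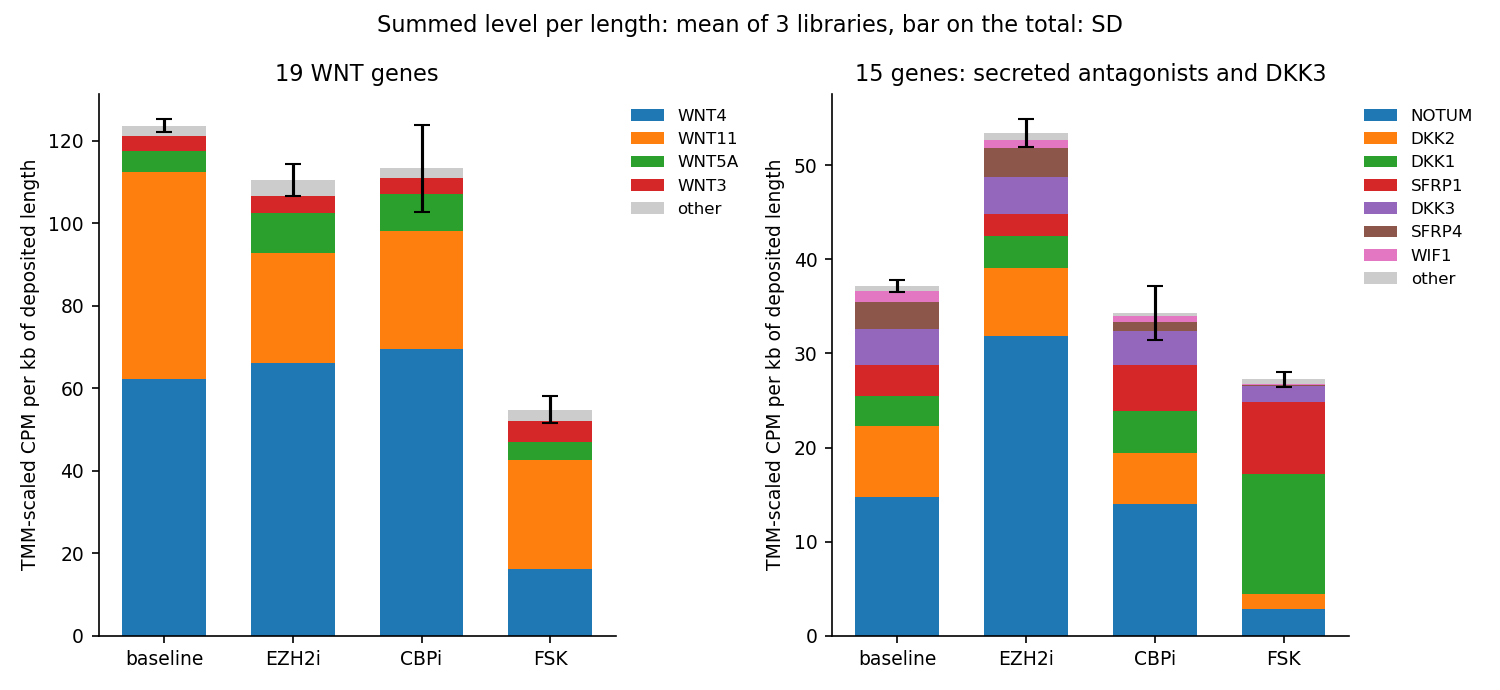
Summed level per length (CPM per kb) of 19 WNT ligand genes and of 15 secreted antagonists with DKK3, as the mean of 3 libraries of each group, stacked from 0 by gene, with the SD of the total as a bar. With forskolin the WNT sum is 54.8 against 124 at baseline, and DKK1 and SFRP1 make up most of the antagonist sum.

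The treatments were also compared with each other, although their doses differ and forskolin was given for 48 h against 96 h. Between EPZ-6438 and PRI-724, 1 of the 8 genes tested was higher with EPZ-6438 (21.7% of all genes were) and 2 were lower (22.2%), where 43.9% of all genes passed. Beyond 1.5-fold were 1 higher (3.55% of all genes) and 1 lower (1.33%), against 4.88%. SFRP4 was 3.20-fold higher (log2 1.68 ± 0.13, edgeR adjusted p = 2.48e-09) and SFRP1 2.11-fold lower (-1.08 ± 0.07, adjusted p = 9.8e-11), and DKK1 was 1.27-fold lower (adjusted p = 0.00431). Differences of WNT4, WNT5A, WNT11, WIF1 and DKK3 did not pass. Their 95% intervals of the log2 difference were -0.18 to 0.04, -0.02 to 0.22, -0.29 to 0.08, -0.06 to 0.72 and -0.02 to 0.31. Without PRI-724 replicate 2, WNT4 (-0.13, adjusted p = 0.0177) and WNT11 (-0.22, adjusted p = 0.00285) passed as lower with EPZ-6438, and without PRI-724 replicate 3, WNT5A passed as higher (0.16, adjusted p = 0.044).

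Against forskolin, 5 of 8 genes were higher with EPZ-6438 (30.3% of all genes were) and 2 lower (31.3%), where 61.6% of all genes passed, and the same numbers held beyond 1.5-fold (10.7% of all genes higher, 7.81% lower, 18.5% in all). PRI-724 also had 5 higher (29.3%) and 2 lower (29.5%), against 58.8%, with 5 higher (8.33%) and 1 lower (6.92%) beyond 1.5-fold, against 15.3%. SFRP4 was 22.8-fold higher with EPZ-6438 and 7.11-fold higher with PRI-724 than with forskolin, and WIF1 6.06-fold and 4.82-fold. WNT4 was 4.12-fold and 4.32-fold higher. DKK1 was 3.69-fold and 2.90-fold lower, and SFRP1 3.29-fold and 1.56-fold lower. WNT11 did not pass in either comparison (log2 0.00, 95% interval -0.18 to 0.19, and 0.11, -0.08 to 0.29), but without PRI-724 replicate 2 it was higher with PRI-724 than with forskolin (0.23, adjusted p = 0.00146).

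Within the 12 libraries, the levels of WNT4, SFRP4, WIF1 and DKK3 were strongly correlated with each other and inversely with DKK1. The Pearson correlation of log2 CPM was 0.976 between WNT4 and DKK3, 0.959 between SFRP4 and WIF1, and -0.981 between WIF1 and DKK1. With WNT4, SFRP1 was at -0.78 and WNT5A at 0.74. SFRP1 was also at -0.928 with SFRP4, -0.838 with WIF1, -0.838 with DKK3 and 0.878 with DKK1. WNT11 and WNT5A stood apart from each other, at -0.34. The values come from 4 groups of replicates, with forskolin far from the rest for most genes, and are a description.

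For each tested gene, the expressed genes with the most similar profile over the same 12 libraries were listed, out of 14857 searched (14858 for WIF1). WNT4 was closest to CTNNA2, a neural α-catenin (r = 0.995; 150.4, 175, 189.5 and 30.9 CPM at baseline and with EPZ-6438, PRI-724 and forskolin), and MAPK8IP2 (0.995). DKK1 was closest to P4HB, a protein disulfide isomerase, and TNFRSF12A, a cytokine receptor (both 0.995), and TNFRSF12A ran at 68.1, 83.5, 109 and 505 CPM in the same group order. SFRP1 was closest to the glycine transporter gene SLC6A9 (0.995) and MOCOS (0.991). SFRP4 was closest to RIMS4 (0.994) and NXPH3 (0.993), and WIF1 to the potassium channel gene KCNK2 (0.990) and the neurofilament gene NEFM (0.984). A high correlation does not mean changes of like size. RIMS4 had 11.7 CPM at baseline and 4.78 with forskolin, a smaller change than that of SFRP4. The nearest to WNT11 were FLYWCH2 (0.986) and SRRM3 (0.985), to WNT5A HBS1L and EDA (both 0.992), and to DKK3 CHD3 (0.992) and RAB3B (0.991).

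The rest of the pathway was read from 7 gene lists. They hold ligands, modulators, processing enzymes, receptors, intracellular components, genes of planar polarity and the WNT5A and WNT11 branch, and feedback targets. Some genes stand in more than 1 list, and 91 of 112 genes were tested. With EPZ-6438, 53 were higher and 15 lower than baseline, with a median log2 change of 0.30. With PRI-724, 40 were higher and 21 lower (median 0.11). With forskolin, 21 were higher and 47 lower (median -0.26). The share of all genes tested that passed in each direction was 29.5% higher and 28.3% lower with EPZ-6438, 29.8% and 29% with PRI-724, and 25.5% and 25.1% with forskolin.

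**Figure D4:**
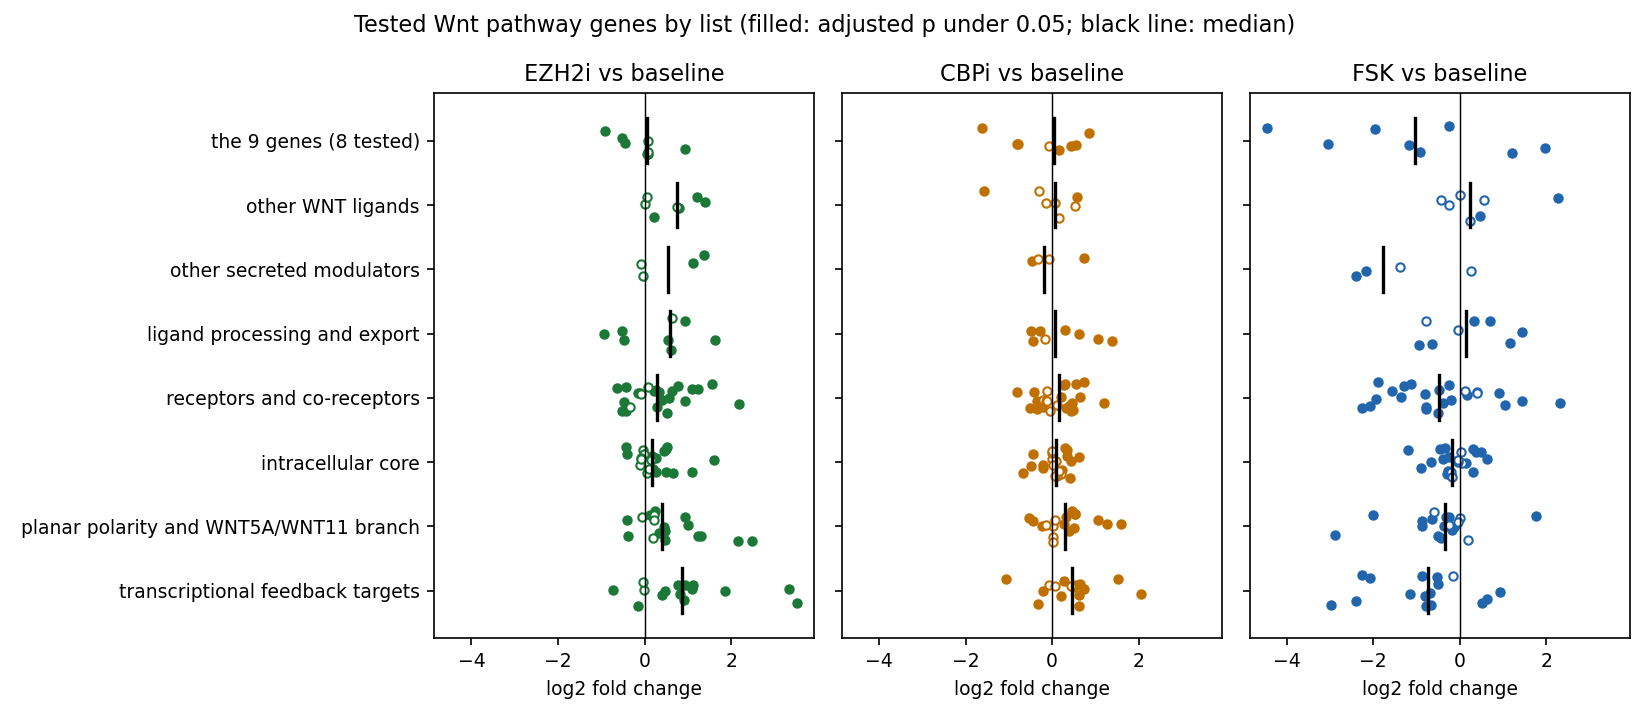
Log2 fold change against baseline of each tested gene (1 point a gene, filled where edgeR's adjusted p was under 0.05) in the members and 7 lists of the Wnt pathway, by treatment, with a black line at each list's median. With forskolin the receptor list has 16 filled points below 0 and 6 above, against 6 and 14 with EPZ-6438. Over all genes, 25.1% were lower and 25.5% higher with forskolin, against 28.3% and 29.5% with EPZ-6438.

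Of 16 other WNT ligands, 7 were tested, and 4 were higher with EPZ-6438, among them WNT9A (1.04 CPM at baseline against 2.76, log2 1.39 ± 0.19) and WNT2B (1.17 against 2.71, 1.20 ± 0.26). PRI-724 raised 1, WNT9A (0.57 ± 0.22), and lowered 1, WNT6 (0.877 against 0.296 CPM), a gene named after its value was seen. Forskolin raised 2, WNT3 (15.6 against 21.6 CPM, 0.47 ± 0.08) and WNT7B (0.226 against 1.12 CPM), the latter likewise named after its value was seen. The ligands tested besides the 3 members had means of at most 21.6 CPM in any group. Over all genes, 29.5% were higher and 28.3% lower with EPZ-6438, 29.8% and 29% with PRI-724, and 25.5% and 25.1% with forskolin.

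Of 14 other secreted modulators, 4 were tested. NOTUM, which is also a known Wnt target, went from 43.0 ± 2.58 CPM at baseline to 92.7 ± 2.15 with EPZ-6438 and 8.20 ± 0.642 with forskolin (log2 1.11 ± 0.08 and -2.39 ± 0.10). DKK2, a Dickkopf protein that binds LRP5 and LRP6, fell from 32.5 ± 0.972 CPM to 7.22 ± 0.438 with forskolin (-2.17 ± 0.08) and to 23.5 ± 2.31 with PRI-724 (-0.46 ± 0.07), so with forskolin it went opposite to DKK1. RSPO4, an R-spondin, rose from 3.83 ± 0.551 CPM to 9.97 ± 0.199 with EPZ-6438 and 6.45 ± 0.547 with PRI-724.

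Among 8 tested genes of ligand processing and export, 4 were higher with each treatment, and 3 were lower with EPZ-6438, 3 with PRI-724 and 2 with forskolin. Beside these, 29.5% of all genes were higher and 28.3% lower with EPZ-6438, 29.8% and 29% with PRI-724, and 25.5% and 25.1% with forskolin. WLS, the carrier that brings Wnt ligands to the cell surface, had 162 ± 3.85 CPM at baseline, 248 ± 5.17 with EPZ-6438, 249 ± 4.75 with PRI-724 and 363 ± 3.42 with forskolin. The rise with forskolin (log2 1.16 ± 0.04) stood beside a fall of WNT4 and WNT11 messenger RNA. PORCN, which attaches the lipid, fell from 11.8 CPM at baseline to 8.44 and 8.66 CPM with EPZ-6438 and PRI-724 and rose to 19.1 CPM with forskolin. SULF2, an extracellular sulfatase, fell with each treatment (34.7 CPM at baseline against 18.2, 24.6 and 18.1). TRABD2B, a metalloprotease that cleaves Wnt ligands, rose with EPZ-6438 and PRI-724 (log2 1.64 ± 0.14 and 1.39 ± 0.15) and fell with forskolin (-0.64 ± 0.19).

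Of 24 receptors and co-receptors tested, 14 were higher and 6 lower with EPZ-6438, 12 and 6 with PRI-724, and 6 and 16 with forskolin. The shares of all genes were 29.5% and 28.3% with EPZ-6438, 29.8% and 29% with PRI-724, and 25.5% and 25.1% with forskolin. FZD7, a Frizzled receptor, rose from 133 ± 3.33 to 388 ± 11.1 CPM with EPZ-6438 (log2 1.55 ± 0.06) and was at 34.6 ± 1.25 CPM with forskolin. FZD10 rose with all 3 treatments from 0.719 CPM at baseline (3.30, 1.68 and 3.62 CPM). FZD4 rose with forskolin from 9.19 to 25.03 CPM (1.44 ± 0.08). Both R-spondin receptors tested fell with forskolin, LGR5 from 12.7 ± 0.438 to 2.66 ± 0.168 CPM (-2.25 ± 0.10) and LGR4 from 15.3 to 7.04 CPM. APCDD1, a membrane inhibitor of Wnt binding, went from 626 ± 2.33 to 149 ± 9.62 CPM with forskolin (-2.07 ± 0.05). KREMEN2, a DKK1 co-receptor, fell with PRI-724 (13.5 against 7.67 CPM) and was at 3.63 CPM with forskolin, where DKK1 was highest.

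The intracellular core had 21 genes tested, with 11 higher and 2 lower with EPZ-6438, 7 and 5 with PRI-724, and 6 and 9 with forskolin. Of all genes, 29.5% were higher and 28.3% lower with EPZ-6438, 29.8% and 29% with PRI-724, and 25.5% and 25.1% with forskolin. LEF1, a transcription factor that binds β-catenin, rose with EPZ-6438 (log2 1.09 ± 0.05) and PRI-724 (0.62 ± 0.05), and CTNNB1 fell with EPZ-6438 (-0.40 ± 0.03). With forskolin, APC2 (-1.20 ± 0.15) and AMER1 (-0.89 ± 0.07), of the complex that marks β-catenin for destruction, fell and TCF7 (0.62 ± 0.05) rose. The list of planar polarity and the WNT5A and WNT11 branch had 18 genes. Of these, 12 were higher and 2 lower, 10 and 3, and 1 and 12 in the same order of treatments. NFATC2, a calcium-responsive factor of that list, rose from 3.45 ± 0.38 to 19.3 ± 2.16 CPM with EPZ-6438 and 10.4 ± 0.887 with PRI-724 and fell to 0.462 ± 0.177 with forskolin. DAAM2, a Dishevelled-binding formin, fell with forskolin (-2.01 ± 0.04), and PRICKLE2, a core polarity gene, was the 1 gene that rose (1.76 ± 0.15).

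Of 16 feedback targets, 12 were higher and 2 lower with EPZ-6438, 10 and 3 with PRI-724, and 3 and 12 with forskolin. In all genes the shares were 29.5% and 28.3% with EPZ-6438, 29.8% and 29% with PRI-724, and 25.5% and 25.1% with forskolin. CCND1, which encodes cyclin D1, rose from 2.24 ± 0.0674 CPM to 22.6 ± 0.229 with EPZ-6438 and 9.27 ± 0.268 with PRI-724. NKD2, a feedback inhibitor that binds Dishevelled, rose with EPZ-6438 (log2 3.53 ± 0.16) and forskolin (0.93 ± 0.23), and NKD1 rose with PRI-724 (1.52 ± 0.05). ISM1 fell from 72.3 ± 1.16 to 9.20 ± 0.752 CPM with forskolin (-2.97 ± 0.07). BIRC5, a survival and cell division gene, fell with EPZ-6438 (-0.74 ± 0.05) and PRI-724 (-1.06 ± 0.05).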

How the data were processed

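The data are RNA-seq libraries of polyadenylated RNA, 3 in each of 4 groups of NCI-H295R cells (12 in all). Per the submitters' processing notes, the authors used STAR, featureCounts and the hg38 build. Not given in the sources used here are their versions, the annotation release, the strand setting and how multimapping reads were handled. Values in the deposited table are estimated counts (expected counts, 65.6% of the non-zero values whole within 1e-06) for 60617 genes and, as another unit, the authors' gene length in bases. All count columns matched a sample by name.

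Symbols were available for 60261 genes, and gene positions are those of GENCODE release 29. After rounding, counts were modelled in edgeR 4.0.16 (limma 3.58.1, R 4.3.3). The filter filterByExpr kept 20360 genes, and libraries were scaled by TMM (factors 0.954 to 1.03). A robust quasi-likelihood model was fitted to all 12 libraries, with Benjamini-Hochberg adjustment over the genes tested and a threshold of 0.05. The test against a fold of 1.5 was glmTreat. SE is the size of the log2 fold change over the square root of F. The biological coefficient of variation was 4.98%. The method was tested on simulated counts in which only a small part of the genes, none with low counts, was changed. In these data many more genes passed and some members had few counts, a setting that was not simulated.

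The members and gene lists were chosen with earlier results of these data known. Named genes were the members, the called genes with the largest changes in each list (up to 2 a direction for each comparison with baseline, mean log2 CPM of at least 0), the 2 genes most correlated with each member (mean log2 CPM of at least 1, prior count 2) and the markers. Alternatives were DESeq2 1.42.0, other scalings and filters, 2-fold in place of 1.5-fold, and leaving out each library.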

Additional observations from a re-analysis of the deposited data

How the results depend on the processing

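Of 48 log2 fold changes of the members, 36 passed the threshold, and 34 of these kept direction and call in each of 21 alternatives. The exceptions were WIF1 (EPZ-6438 against baseline), whose call was lost with DESeq2 (-0.46) and when some libraries were left out (-0.52 to -0.33, adjusted p 0.0176 to 0.165 over the alternatives), and WNT4 (PRI-724 against baseline; 0.12 to 0.21, adjusted p 0.000205 to 0.0863). Leaving out 1 library turned the sign of 2 differences that never passed, SFRP4 with EPZ-6438 against baseline (-0.0397 to 0.11) and WNT11 with EPZ-6438 against forskolin (-0.0416 to 0.0722). It let others pass: between EPZ-6438 and PRI-724, WNT4 (-0.13 to -0.0321), WNT11 (-0.22 to -0.0214) and WNT5A (0.0442 to 0.16), with 1 to 2 members higher and 2 to 4 lower; between PRI-724 and forskolin, WNT11 (0.0242 to 0.23). With 2-fold in place of 1.5-fold, 0 members in place of 2 passed for EPZ-6438 against baseline, 1 in place of 3 for PRI-724 (2 to 3 at 1.5-fold when 1 library was left out), and 1 in place of 2 between them. Over all alternatives, 2-fold included, 5 to 7 members passed for forskolin against baseline. Between PRI-724 and forskolin 4 to 6 passed, and between EPZ-6438 and forskolin 7 passed throughout. The cause was not tested. Counts of pathway genes ranged from 50 to 57 higher and 13 to 18 lower with EPZ-6438, 36 to 42 and 20 to 23 with PRI-724, and 18 to 23 and 45 to 52 with forskolin. Depth limits SFRP4 and WIF1 with forskolin (6 to 14 counts a library) and RSPO3. No paired analysis was possible because the labels carry no replicate numbers.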

Other observations

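Another 2 secreted modulators were below the filter on low counts but had counts almost solely with EPZ-6438, and both were named after their values were seen. SFRP2, a further member of the Frizzled-related family, had raw counts of 16, 11 and 12 with EPZ-6438 and of 0, 1 and 0 at baseline. RSPO1, an R-spondin, had 15, 10 and 6 with EPZ-6438 and 0 in all 3 baseline libraries. The RSPO1 level with EPZ-6438 was at least 7.83-fold higher than the level that a count of 0 over the baseline group allows (3 counts over the group). Because both genes were picked for this difference, a test of it in the same libraries would give no support, and the counts are a description. RSPO3 did not pass in any comparison with baseline without the filter (edgeR adjusted p = 0.743 with EPZ-6438, 0.819 with PRI-724 and 0.418 with forskolin).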
